A study of Homo sapiens with 24 samples.

Results

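The genes described here are 10 Wnt pathway genes, the ligands WNT5A, WNT5B, WNT7A, WNT7B and WNT10A, the secreted proteins DKK1 and DKK3, and AXIN2, LEF1 and TCF7, which act in the cell and are known targets of the pathway. They were chosen by name, with earlier results of these data known. Their estimated counts and TPM (transcript abundance per unit of length, scaled to an equal total in every library) were summed over their Ensembl transcripts. All 10 were among the 17413 genes that passed the filter on low counts, out of 34834 genes with a sum. All libraries are bulk RNA-Seq of total RNA from SK-MES-1, an established human line of squamous lung cancer. Cells of both arms first spent 3 h without growth factors, after which TGFβ1 at 2 ng/ml was given to 1 arm and none to the other. The untreated and the TGFβ1 arm were sampled at 0, 8, 24 and 48 h with 3 replicates each, which gave 24 libraries in 8 groups. All groups come from this single line, and the study calls the replicates biological. How they were raised is not described, so the p-values measure the spread between these libraries, part of which may be technical. The names of the deposited tables carry 4 codes, so that in either arm the early times (0 and 8 h) have a code and the late times (24 and 48 h) have another. What the codes stand for is not given in the sources used here, and at each single time point code and arm cannot be told apart.

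Wnt proteins are secreted ligands that bind Frizzled receptors. In the β-catenin branch they also engage LRP5 or LRP6, the destruction complex built on AXIN is inhibited, and β-catenin reaches the nucleus, where it activates genes through TCF and LEF proteins. Other ligands, WNT5A and WNT5B among them, mostly act through branches that do not need β-catenin and that steer cell polarity and movement. DKK proteins are secreted, and DKK1 blocks the pathway at LRP5 and LRP6. In the airway and lung, Wnt signals are known for their part in branching, in basal cell maintenance and in repair.

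With TGFβ1, the ligands WNT5B, WNT7A and WNT7B and the transcription factor TCF7 were higher at 8, 24 and 48 h, and DKK3 was higher at 24 and 48 h. WNT10A and AXIN2 were lower at all 3 time points after 0 h, and DKK1 was lower at 48 h. LEF1 was called lower at 24 and 48 h and WNT5A at 8 h. The calls of LEF1 and WNT5A and that of WNT10A at 24 h depended on the unit, the scaling or single libraries. The AXIN2 call at 48 h depended on the unit or the scaling, and that at 24 h on the scaling. In a moderated F-test over the arm differences at 8, 24 and 48 h in limma voom, with a threshold of 0.01 on the Benjamini-Hochberg adjusted p, all 10 genes were called, 5 higher and 5 lower on average, where 42.6% of all tested genes were called. An average difference of at least 2-fold was reached by 3 of the 10, WNT5B, WNT7A and WNT7B, against 5.61% of all tested genes. Since the 10 genes were chosen with earlier results known, such counts beside the shares of all genes are a description only. The median of the 10 average log2 differences was 0.056, and that of all tested genes was -0.018. In bulk RNA, a change in the number of cells that carry a transcript and a change in transcript per cell cannot be told apart.

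Where a transcript starts decides which upstream sequence is of interest, so the bases before the start are shown for genes that differed between the arms. RefSeq promoter windows (GRCh38.p14) were matched by symbol for 7 of the 10 genes, with 10 windows in all, and WNT7B, DKK3 and AXIN2 had no entry. Each sequence is given 5′ to 3′ along the gene's strand and covers the 250 bases before the start. Capitals mark matches on either strand to CTTTGA, the core of the TCF/LEF motif, to CAGAC, a SMAD box, or to TGANTCA, the AP-1 motif. The first window lies before the WNT5B start that held most of its transcript, and the windows of WNT7A, TCF7 and DKK1 follow.
WNT5B, chr12:1616806-1617055, plus strand: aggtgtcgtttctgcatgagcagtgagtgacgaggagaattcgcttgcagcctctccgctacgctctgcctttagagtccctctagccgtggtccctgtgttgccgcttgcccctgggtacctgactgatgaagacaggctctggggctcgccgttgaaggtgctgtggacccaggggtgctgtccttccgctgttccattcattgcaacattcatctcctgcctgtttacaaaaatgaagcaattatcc
WNT7A, chr3:13880072-13880321, minus strand: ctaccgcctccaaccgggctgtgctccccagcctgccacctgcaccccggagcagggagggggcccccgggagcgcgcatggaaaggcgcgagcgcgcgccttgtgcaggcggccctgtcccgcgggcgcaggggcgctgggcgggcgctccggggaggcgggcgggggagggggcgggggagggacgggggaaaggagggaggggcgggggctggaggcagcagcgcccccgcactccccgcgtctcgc
TCF7, chr5:134115363-134115612, plus strand: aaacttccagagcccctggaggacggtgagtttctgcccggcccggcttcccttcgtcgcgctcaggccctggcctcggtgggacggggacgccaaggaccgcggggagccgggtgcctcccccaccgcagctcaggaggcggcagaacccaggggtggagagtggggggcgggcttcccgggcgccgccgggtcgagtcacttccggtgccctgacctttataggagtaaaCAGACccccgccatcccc
DKK1, chr10:52314031-52314280, plus strand: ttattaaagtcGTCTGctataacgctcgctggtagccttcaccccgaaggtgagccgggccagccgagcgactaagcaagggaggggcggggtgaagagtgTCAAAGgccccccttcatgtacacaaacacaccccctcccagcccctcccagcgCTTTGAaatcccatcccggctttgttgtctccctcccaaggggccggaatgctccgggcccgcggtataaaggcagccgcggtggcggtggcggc

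The DKK1 window held 2 matches to CTTTGA, beginning 149 and 95 bases before the start, and 1 match to CAGAC. Of all 35116 windows of this length, 11.2% held CTTTGA, 38% held CAGAC and 6.57% held TGANTCA. The TCF7 window had 1 match to CAGAC, beginning 18 bases before the start. The windows shown for WNT5B and WNT7A held none of the 3 motifs, which says only that these letters are not in these 250 bases. The other WNT5B window, before the start at position 1629231 of chromosome 12, held 1 match to CAGAC. The windows of WNT10A and LEF1, both windows of WNT5A and the other window of TCF7 held no match.

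At 0 h, 0 of the 10 genes were called, against 0.0% of all genes, with limma voom. The count was also 0 with edgeR and with DESeq2, and 0 of the 10 had an unadjusted p below 0.05 in limma voom (800 of all tested genes did). AXIN2 alone had libraries of the arms that did not overlap in TPM at 0 h, at 8.93 to 10.2 TPM in untreated cells and 8.09 to 8.33 TPM in the TGFβ1 arm. Such separation was found in 6.98% of all genes at 0 h. At 8 h, 7 of the 10 genes were called, 4 higher and 3 lower with TGFβ1, where 16.4% of all genes were called, 9.14% higher and 7.28% lower. At 24 h, 8 genes were called, 5 higher and 3 lower, against 29.4% of all genes, 15.5% higher and 13.9% lower. At 48 h, 9 genes were called, 5 higher and 4 lower, against 32.7% of all genes, 16.2% higher and 16.5% lower. The TPM ranges of the arms did not overlap for 7 of the 10 genes at 8 h, 7 at 24 h and 8 at 48 h, against 47.5%, 40.4% and 55.2% of all genes.

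**Figure D1:**
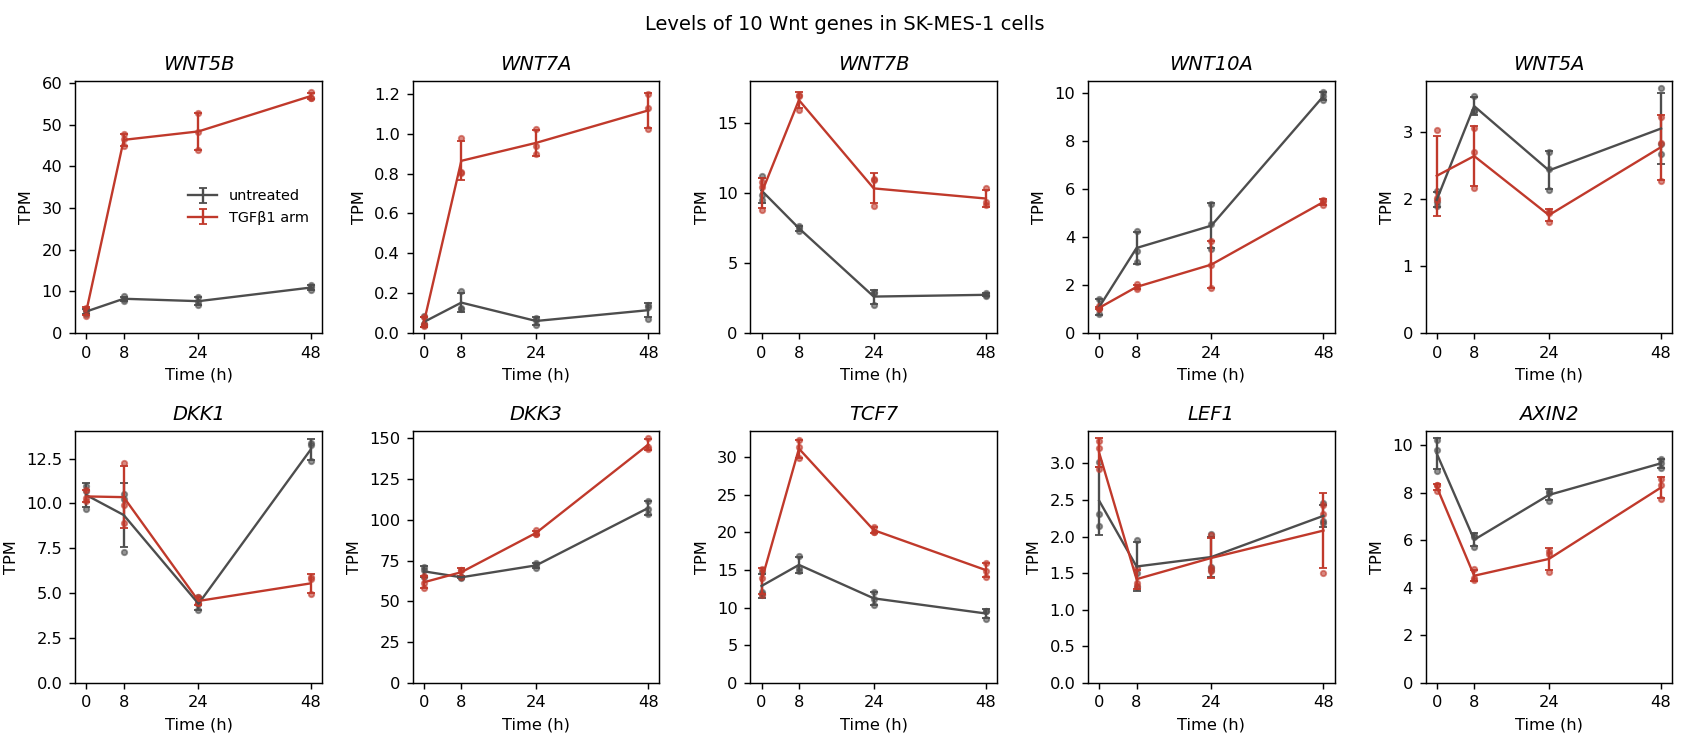
Levels of the 10 genes in TPM (vertical axes, each from 0) against time in hours, with untreated libraries in grey and the TGFβ1 arm in red. Dots are libraries, and lines join means with SD (n = 3). WNT5B stood between 44 and 57.8 TPM with TGFβ1 from 8 h on and between 6.68 and 11.5 TPM without, while DKK1 parted only at 48 h.

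WNT5B, a ligand of the β-catenin-independent branch encoded on chromosome 12 (GRCh38, 1529891 to 1647212, plus strand), had the highest level of the 5 ligands under TGFβ1 from 8 h on. At 0 h its libraries held 5.52, 4.48 and 5.55 TPM in untreated cells and 6.08, 4.15 and 5.52 TPM in the TGFβ1 arm. At 8 h they held 8.12, 7.79 and 8.80 TPM without and 44.8, 46.5 and 47.7 TPM with TGFβ1. The arms thus overlapped at 0 h and were far apart 8 h later. At 24 h the untreated libraries held 8.73, 6.68 and 7.56 TPM and the TGFβ1 libraries 52.9, 44 and 48.3 TPM, and at 48 h they held 11, 11.5 and 10.3 TPM and 56.5, 57.8 and 56.3 TPM. No library of the untreated arm came near the TGFβ1 arm after 0 h. The log2 difference at 8, 24 and 48 h was 2.55 ± 0.09 (SE), 2.75 ± 0.09 and 2.45 ± 0.09, with limma voom adjusted p-values of 3.1e-15, 8.6e-16 and 1.4e-15. WNT5B also rose within the untreated arm, by 0.57 ± 0.11 on the log2 scale from 0 to 8 h (limma voom adjusted p = 0.00036) and by 0.46 ± 0.10 from 24 to 48 h (adjusted p = 0.0011).

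Most WNT5B transcript belonged to a single annotated form. WNT5B-201, which starts at position 1617056 behind the first sequence above, made up 77.3% ± 2.36 (SD, n = 3) of WNT5B TPM in untreated cells at 48 h and 80.3% ± 1.93 with TGFβ1. Its level was 8.43 ± 0.27 TPM without and 45.7 ± 0.46 TPM with TGFβ1 at 48 h. The annotated canonical form WNT5B-202, which starts at position 1629231, reached 1.26 ± 0.17 TPM with TGFβ1 at that time. Over the 10 genes, 33 transcripts that reached 10% of their gene in some group were tested for a change of share with an exact permutation test, and 0 passed at an adjusted p of 0.05 in TPM or in estimated counts. In each unit, 3 of the 33 had an unadjusted p below 0.05, and the smallest in TPM was that of WNT5B-201 (exact permutation p = 0.00625, adjusted p = 0.206), whose share was 3.7 percentage points higher with TGFβ1. Shares of transcripts of the same gene rest on reads that kallisto divides between them, so they are less certain than gene sums.

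WNT7A, a ligand known from limb and nervous system development (chromosome 3, 13816258 to 13880071, minus strand), was the lowest of the 10 genes in both arms. Untreated libraries held 0.209, 0.122 and 0.128 TPM at 8 h, 0.0674, 0.0405 and 0.0744 TPM at 24 h and 0.133, 0.0730 and 0.139 TPM at 48 h, which were between 5 and 33 estimated counts. With TGFβ1 they held 0.977, 0.810 and 0.805 TPM at 8 h, 1.03, 0.938 and 0.898 TPM at 24 h and 1.02, 1.2 and 1.13 TPM at 48 h, on 96 to 158 estimated counts. Every TGFβ1 library after 0 h lay above every untreated library. The log2 difference at 8, 24 and 48 h was 2.56 ± 0.22, 4.18 ± 0.32 and 3.28 ± 0.25 (limma voom adjusted p = 9.8e-09, 6.6e-10 and 5.7e-10), and the few counts without TGFβ1 limit how precisely the size is known. In the untreated arm the level rose from 0 to 8 h, by 1.37 ± 0.36 on the log2 scale (adjusted p = 0.0049). This call was lost without untreated replicate 2 or 3 of 0 h or replicate 1 of 8 h (adjusted p of up to 0.035), and untreated libraries were back at 0.0608 ± 0.0179 TPM (SD, n = 3) at 24 h.

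WNT7B, a ligand of airway and lung epithelium (chromosome 22, 45920366 to 45977162, minus strand), fell in untreated cells and was near its 0 h level in the TGFβ1 arm at 24 and 48 h. At 0 h the untreated libraries held 11.2, 9.80 and 9.49 TPM and the other arm 10.4, 8.78 and 10.8 TPM. At 8 h the values were 7.62, 7.5 and 7.28 TPM without and 16.9, 17.0 and 15.9 TPM with TGFβ1. At 8 h the arms had moved in opposite directions, since WNT7B fell by 0.48 ± 0.12 on the log2 scale in untreated cells (limma voom adjusted p = 0.0029) and rose by 0.73 ± 0.11 with TGFβ1 (adjusted p = 1.5e-05). The fall in untreated cells lost its call without untreated replicate 1 of 0 h or replicate 3 of 8 h (adjusted p of up to 0.025). Untreated libraries then held 2.84, 2.03 and 2.93 TPM at 24 h and 2.83, 2.63 and 2.72 TPM at 48 h. TGFβ1 libraries held 10.9, 9.08 and 11 TPM at 24 h and 10.3, 9.32 and 9.14 TPM at 48 h, near their 0 h level. From 0 to 48 h the log2 change was -1.95 ± 0.14 in untreated cells (adjusted p = 8.8e-11) and -0.12 ± 0.12 in the TGFβ1 arm (adjusted p = 0.36). The difference between the arms at 8, 24 and 48 h was 1.2 ± 0.11, 2.04 ± 0.14 and 1.82 ± 0.14 (adjusted p = 3.7e-08, 1.3e-10 and 7.3e-10).

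WNT10A, a β-catenin branch ligand known from teeth, hair and skin (chromosome 2, 218880852 to 218899581, plus strand), rose with time in both arms and was lower with TGFβ1 at each time after 0 h. Untreated libraries held 1.04, 0.778 and 1.43 TPM at 0 h, 2.95, 3.45 and 4.26 TPM at 8 h, 5.38, 3.52 and 4.55 TPM at 24 h and 10.1, 9.73 and 9.90 TPM at 48 h. TGFβ1 libraries held 1.11, 1.03 and 1.02 TPM at 0 h, 2.03, 1.83 and 1.92 TPM at 8 h, 3.84, 1.90 and 2.84 TPM at 24 h and 5.33, 5.57 and 5.53 TPM at 48 h. The arms were apart at 8 and 48 h and overlapped at 24 h. From 0 to 48 h the rise was 3.29 ± 0.20 on the log2 scale in untreated cells and 2.42 ± 0.21 with TGFβ1 (limma voom adjusted p = 7.9e-12 and 1.6e-09). The difference between the arms at 8, 24 and 48 h was -0.88 ± 0.17, -0.56 ± 0.15 and -0.87 ± 0.13 (adjusted p = 0.00062, 0.0064 and 9.7e-06). At 24 h it lost its call without replicate 2 or 3 of the TGFβ1 arm or replicate 1 or 3 of the untreated arm at that time, and without TGFβ1 replicate 2 it was -0.35 (adjusted p = 0.044). It also lost its call under 6 of 13 alternative settings, edgeR and log2(TPM + 0.1) among them.

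WNT5A, the close relative of WNT5B (chromosome 3, 55465715 to 55490539, minus strand), did not follow it. Untreated libraries held 3.32, 3.54 and 3.31 TPM at 8 h and 2.45, 2.13 and 2.70 TPM at 24 h, and TGFβ1 libraries 2.71, 3.06 and 2.16 TPM and 1.83, 1.80 and 1.66 TPM. The TGFβ1 libraries lay below the untreated ones at both times, while at 48 h the arms overlapped at 2.67 to 3.66 TPM and 2.26 to 3.23 TPM. The log2 difference was -0.29 ± 0.08 at 8 h (limma voom adjusted p = 0.0072), -0.26 ± 0.09 at 24 h (adjusted p = 0.027) and 0.00 ± 0.08 at 48 h (adjusted p = 0.98). The call at 8 h was lost without untreated replicate 1 or 3 or any TGFβ1 replicate of 8 h, with an adjusted p of up to 0.046, and the F-test call without TGFβ1 replicate 3 or untreated replicate 1 of 8 h (adjusted p = 0.016 and 0.014). Both calls were also lost on log2(TPM + 0.1), log2(TPM + 1) and length-scaled counts, and the call at 8 h with edgeR.

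The shared sequence between these genes was small. WNT5A and WNT5B shared 5 words of 31 bases, the word length kallisto uses by default, out of 7109 and 4222, so that few reads could be divided between them.

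**Figure D2:**
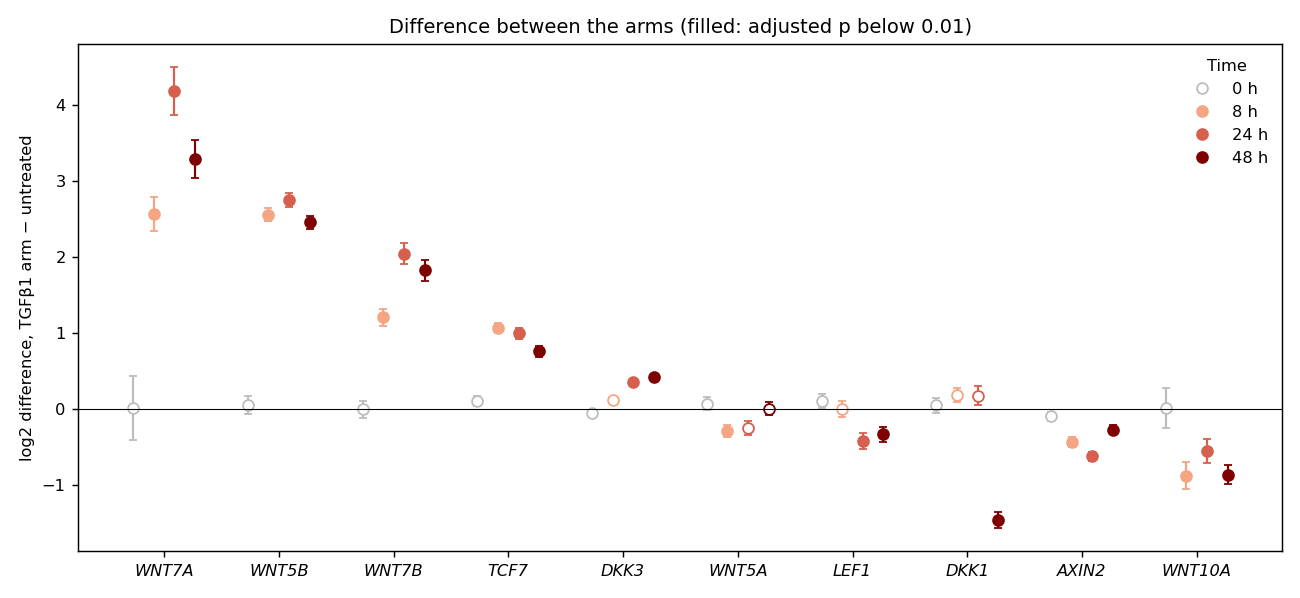
log2 difference between the TGFβ1 arm and untreated cells (vertical axis) for each gene at 0, 8, 24 and 48 h, from limma voom, with SE as bars. Filled dots have an adjusted p below 0.01. WNT7A, WNT5B and WNT7B stand above 1 at each time after 0 h, and the DKK1 difference of -1.46 appears at 48 h only.

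DKK1, the secreted antagonist of LRP5 and LRP6 (chromosome 10, 52314281 to 52318042, plus strand), followed the same course in both arms until 24 h and then parted. Untreated libraries held 10.7, 9.71 and 11 TPM at 0 h and 4.78, 4.07 and 4.37 TPM at 24 h, and TGFβ1 libraries 10.1, 10.8 and 10.3 TPM and 4.81, 4.46 and 4.42 TPM. At 48 h the untreated libraries were at 12.3, 13.4 and 13.3 TPM and the TGFβ1 libraries at 5.78, 4.93 and 5.92 TPM, without overlap. From 24 to 48 h DKK1 rose by 1.75 ± 0.10 on the log2 scale in untreated cells (limma voom adjusted p = 2.8e-11), and with TGFβ1 the change was 0.11 ± 0.12 (adjusted p = 0.51). The log2 difference between the arms was 0.18 ± 0.09 at 8 h and 0.17 ± 0.12 at 24 h (adjusted p = 0.19 and 0.28) and -1.46 ± 0.10 at 48 h (adjusted p = 1.9e-10). Of the 3 DKK1 transcripts that were tested, DKK1-201, which starts behind the DKK1 sequence above, held 8.59 ± 0.44 TPM in untreated cells and 2.85 ± 0.54 TPM with TGFβ1 at 48 h. Averaged over 8, 24 and 48 h, the exact permutation test on log2(TPM + 0.1) gave DKK1 a two-sided p of 0.0798.

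DKK3, a diverged family member (chromosome 11, 11956207 to 12009769, minus strand), was the most abundant of the 10 genes in every group. Untreated libraries held 64.2, 65.1 and 65.0 TPM at 8 h, 73.4, 70.6 and 72.3 TPM at 24 h and 107, 112 and 104 TPM at 48 h. TGFβ1 libraries held 69.5, 64.9 and 69.3 TPM at 8 h, 93.7, 91.3 and 91.1 TPM at 24 h and 145, 150 and 144 TPM at 48 h. The arms overlapped at 8 h and were apart later. DKK3 rose in both arms from 24 to 48 h, by 0.56 ± 0.04 on the log2 scale without and 0.63 ± 0.04 with TGFβ1 (limma voom adjusted p = 1.6e-10 and 3.7e-11). The difference between the arms was 0.12 ± 0.04 at 8 h (adjusted p = 0.027), 0.35 ± 0.04 at 24 h and 0.41 ± 0.04 at 48 h (adjusted p = 1.8e-07 and 7.1e-09). The long form DKK3-202 (9549 bases) shared 59.2% of its 31-base words with USP47, whose gene lies on the other strand. It held a mean of 4.44% of DKK3 TPM, and the leading form DKK3-201 (2636 bases) with 71.0% shared none. A long form weighs more in estimated counts than in TPM. In estimated counts DKK3-201 held 89.8% ± 1.68 (SD, n = 3) without and 87.8% ± 1.77 with TGFβ1 at 48 h.

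TCF7, a DNA-binding partner of β-catenin (chromosome 5, 134114681 to 134151865, plus strand), had its highest mean level at 8 h in both arms. Its libraries held 15.3, 16.9 and 14.9 TPM without and 31.3, 32.3 and 29.9 TPM with TGFβ1 at 8 h. At 24 h they held 11.2, 12.1 and 10.4 TPM and 20.1, 20.1 and 20.7 TPM, and at 48 h 8.46, 9.60 and 9.61 TPM and 14.9, 14.1 and 15.9 TPM. The arms were apart at each of these times, although the TGFβ1 libraries of 48 h were back near the 0 h range of 11.7 to 15.1 TPM. The log2 difference at 8, 24 and 48 h was 1.06 ± 0.06, 0.99 ± 0.07 and 0.75 ± 0.07 (limma voom adjusted p = 4.6e-11, 2.0e-10 and 3.3e-08). With TGFβ1 TCF7 rose by 1.2 ± 0.07 on the log2 scale from 0 to 8 h and fell by 0.52 ± 0.07 from 24 to 48 h (adjusted p = 6.2e-12 and 3.7e-06). In untreated cells the change from 0 to 8 h was 0.24 ± 0.07 (limma voom adjusted p = 0.011), which passed under 3 of 12 alternative settings. From 0 to 48 h the log2 change was -0.56 ± 0.07 in untreated cells and 0.09 ± 0.07 with TGFβ1 (limma voom adjusted p = 1.2e-06 and 0.29). The 9 transcripts that start within 100 bases of position 134115613, behind the TCF7 sequence above, together held 19.0 ± 1.02 TPM with and 10.1 ± 0.91 TPM without TGFβ1 at 8 h, and TCF7-203 led among them.

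LEF1, the sister factor of TCF7 (chromosome 4, 108047545 to 108168956, minus strand), was low, and its call depended on the unit. At 24 h its libraries held 2.04, 1.54 and 1.58 TPM without and 1.57, 2.03 and 1.52 TPM with TGFβ1, and at 48 h 2.19, 2.21 and 2.46 TPM and 2.31, 1.5 and 2.43 TPM. The arms overlapped in TPM at every time. In estimated counts they did not overlap at 24 h, with 99 to 124 counts without and 73 to 92 with TGFβ1, nor at 48 h, with 124 to 159 and 84 to 106. The count-based log2 difference at 8, 24 and 48 h was -0.01 ± 0.10, -0.43 ± 0.11 and -0.33 ± 0.10 (limma voom adjusted p = 0.97, 0.0028 and 0.0094), and on log2(TPM + 0.1) the differences at 24 and 48 h were -0.01 and -0.16 (limma adjusted p = 0.97 and 0.55). Over 13 alternative settings the LEF1 difference ranged from -0.90 to 0.01 at 24 h and from -0.69 to 0.02 at 48 h. The call at 24 h was lost without TGFβ1 replicate 1 or 3 or untreated replicate 3 of 24 h (limma voom adjusted p of up to 0.020), and that at 48 h when any of 17 of the 24 libraries was left out (adjusted p of up to 0.068). The exact permutation test over 8, 24 and 48 h gave p = 0.357 on log2(TPM + 0.1) and p = 0.0015 on log2(CPM + 0.5). LEF1 fell from 0 to 8 h in both arms, by 0.68 ± 0.10 on the log2 scale without and 0.78 ± 0.10 with TGFβ1 (adjusted p = 1.3e-05 and 1.1e-06). Both calls were lost with protein-coding transcripts only, and the untreated call also on log2(TPM + 0.1) and log2(TPM + 1).

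AXIN2, the inducible scaffold of the destruction complex and a widely used readout of β-catenin activity (chromosome 17, 65528563 to 65561648, minus strand), was lower with TGFβ1. Untreated libraries held 6.20, 6.15 and 5.71 TPM at 8 h, 8.00, 7.65 and 8.08 TPM at 24 h and 9.42, 9.06 and 9.24 TPM at 48 h. TGFβ1 libraries held 4.78, 4.40 and 4.34 TPM at 8 h, 5.44, 4.67 and 5.53 TPM at 24 h and 7.73, 8.60 and 8.35 TPM at 48 h. The arms did not overlap at any time, 0 h included. The log2 difference began at -0.10 ± 0.06, reached -0.44 ± 0.06 by 8 h and -0.63 ± 0.06 by 24 h, and came to -0.28 ± 0.06 by 48 h (limma voom adjusted p = 1.0, 1.8e-05, 3.9e-08 and 0.00056). The call at 48 h was lost on log2(TPM + 0.1), where AXIN2 was at -0.17 (limma adjusted p = 0.084), on log2(TPM + 1) and with length-scaled counts, and with 4 reference genes as library size the calls at 24 and 48 h were both lost. AXIN2 fell from 0 to 8 h in both arms, by 0.69 ± 0.06 on the log2 scale without and 1.02 ± 0.06 with TGFβ1 (adjusted p = 1.0e-08 and 2.5e-11). Of the 31-base words of AXIN2, 25.0% were shared with ENSG00000266076 or ENSG00000236555, whose levels did not exceed 0.363 and 0.655 TPM in any library.

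The order of the levels changed with TGFβ1. In untreated cells at 48 h it ran from DKK3 over DKK1, WNT5B, WNT10A, AXIN2, TCF7, WNT5A, WNT7B and LEF1 to WNT7A, and the libraries of neighbours overlapped for AXIN2 with TCF7 and for WNT5A with WNT7B. With TGFβ1 at 48 h it ran from DKK3 over WNT5B, TCF7, WNT7B, AXIN2, DKK1, WNT10A, WNT5A and LEF1 to WNT7A, with overlap of DKK1 with WNT10A and of WNT5A with LEF1. WNT7B thus stood in place 4 with and 8 without TGFβ1, and DKK1 in place 6 and 2.

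**Figure D3:**
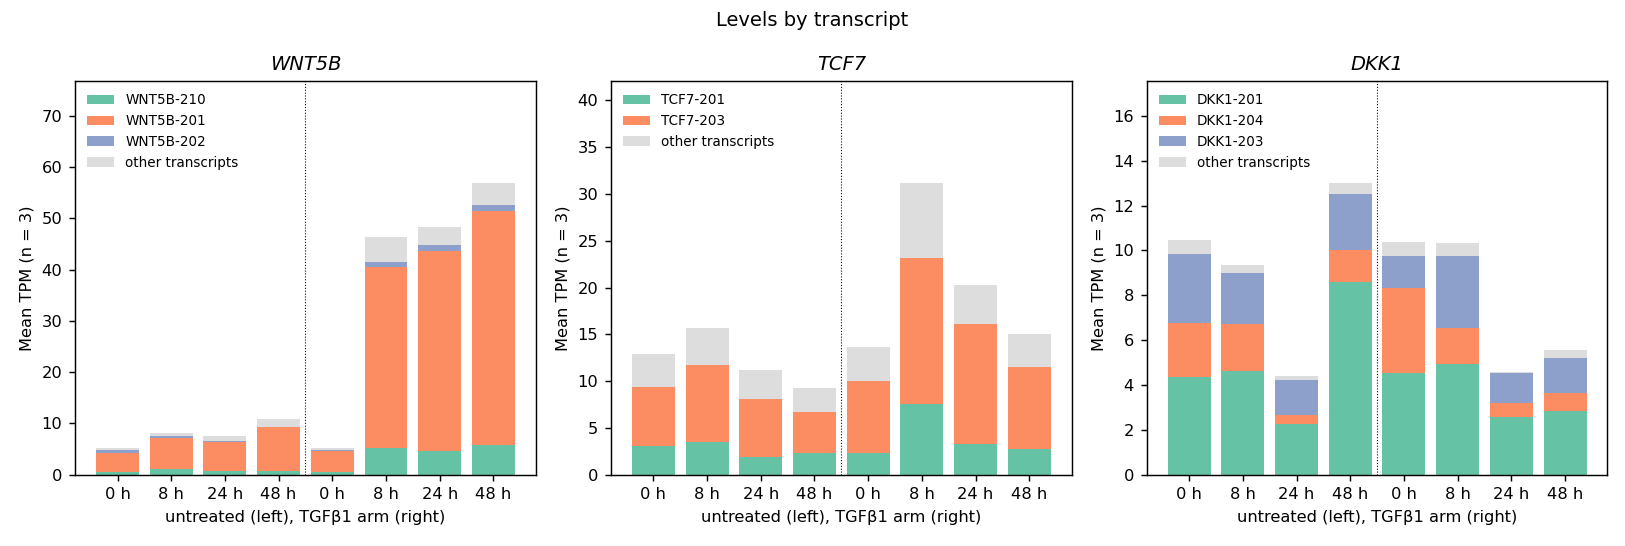
Mean TPM by transcript (stacked bars, n = 3) for WNT5B, TCF7 and DKK1 in the 8 groups, with untreated groups left and the TGFβ1 arm right of the dotted line. WNT5B-201 fills most of each WNT5B bar, at 45.7 TPM with TGFβ1 at 48 h, and DKK1-201 holds 8.59 TPM in the untreated 48 h bar and 2.85 TPM in the TGFβ1 bar.

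Because 0 and 8 h share a code within each arm, as do 24 and 48 h, an additive offset between the codes drops out of changes within these pairs. From 0 to 8 h the arm difference changed for 4 of the 10 genes, all toward higher with TGFβ1, against 7.91% of all genes. These were WNT5B (2.50 ± 0.15), WNT7A (2.55 ± 0.48), WNT7B (1.21 ± 0.16) and TCF7 (0.96 ± 0.10 on the log2 scale), with limma voom adjusted p-values of 8.3e-11, 0.00067, 1.3e-05 and 2.8e-07. The lower values of AXIN2 (-0.33 ± 0.09), WNT10A (-0.89 ± 0.31) and WNT5A (-0.36 ± 0.12) did not pass in this contrast (adjusted p = 0.011, 0.075 and 0.048). AXIN2 was close to the threshold and passed under 6 of 12 alternative settings, DESeq2 and the other library scalings by totals or upper quartile among them. From 24 to 48 h, 2 genes passed, against 9.14% of all genes. The DKK1 difference changed by -1.64 ± 0.16 (adjusted p = 3.7e-07) and the AXIN2 difference by 0.35 ± 0.09 (adjusted p = 0.0068). From 8 to 24 h, where the codes differ, 3 genes passed, against 6.7% of all genes, and all moved toward higher with TGFβ1, WNT7A by 1.62 ± 0.39, WNT7B by 0.84 ± 0.18 and DKK3 by 0.23 ± 0.05 (adjusted p = 0.0074, 0.0032 and 0.0067). Leaving out 1 library in turn ended the WNT7A call for 8 of the 24 libraries, which were TGFβ1 replicates 2 and 3 of 8 h and 1 and 3 of 24 h, untreated replicate 1 of 8 h and all untreated replicates of 24 h (adjusted p of up to 0.038). It ended the WNT7B call for 3 libraries, TGFβ1 replicate 3 of 24 h, untreated replicate 1 of 8 h and untreated replicate 2 of 24 h (adjusted p of up to 0.014). It ended the DKK3 call for 10 libraries, all of 8 h in both arms, TGFβ1 replicates 1 and 3 and untreated replicates 1 and 2 of 24 h (adjusted p of up to 0.022). The AXIN2 change from 24 to 48 h lost its call without 10 libraries, all of 48 h in both arms, TGFβ1 replicate 2 and untreated replicates 2 and 3 of 24 h and untreated replicate 3 of 0 h (adjusted p of up to 0.024), and the DKK1 change kept its call without any 1 library. The WNT7A and AXIN2 calls were also lost on both TPM scales, and those of WNT7A, DKK3 and AXIN2 with no filter on low counts. The AXIN2 call was lost with 4 reference genes as library size as well.

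Several of the genes also moved in untreated cells. From 0 to 8 h, 7 of the 10 genes were called in the untreated arm, 4 up and 3 down, against 26.0% of all genes, and 8 in the TGFβ1 arm, 6 up and 2 down, against 33.9%. From 24 to 48 h, 6 were called in the untreated arm, 5 up and 1 down, against 28.5%, and 6 in the TGFβ1 arm, 5 up and 1 down, against 25.8%. WNT7B fell from 0 to 8 h in the untreated arm and rose in the other, and TCF7 was the gene that fell from 24 to 48 h in both arms (-0.28 ± 0.08 without and -0.52 ± 0.07 on the log2 scale with TGFβ1). The TCF7 fall in untreated cells (limma voom adjusted p = 0.0051) lost its call without untreated replicate 1 or 2 of 24 h or replicate 2 or 3 of 48 h (adjusted p of up to 0.026) and on both TPM scales.

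An exact permutation test that exchanged libraries within 8, 24 and 48 h was run on log2(TPM + 0.1) for each gene. WNT5B, WNT7A, WNT7B, TCF7 and AXIN2 had a two-sided p of 0.00025, the smallest that 8000 exact relabellings can give. DKK3 had p = 0.00075, WNT10A p = 0.0005 and WNT5A p = 0.0045 in this exact test, while DKK1 (p = 0.0798) and LEF1 (p = 0.357) did not pass 0.05.

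A list of 87 other Wnt pathway genes, also chosen with earlier results known, places the 10 among their partners. Of these, 77 were tested and 45 (58.4%) were called in the F-test, 28 higher and 17 lower on average, and 32 were not called, with a median log2 difference of 0.047. Of all 17413 genes tested, 42.6% were called, 3657 higher and 3755 lower, and the counts by role below are to be read against that share. Among the other ligands, 9 were tested, 2 were higher, 1 was lower and 6 were not called. WNT11, a β-catenin-independent ligand, stood at 3.45 ± 0.12 TPM with and 2.06 ± 0.33 TPM without TGFβ1 at 48 h (SD, n = 3) and differed by 1.34 ± 0.13 on average on the log2 scale (F-test adjusted p = 8.9e-08). WNT16, known from bone, did not exceed 0.720 TPM and differed by -2.82 ± 0.24 (adjusted p = 4.2e-08). At 0 h WNT16 stood at 0.197 ± 0.027 TPM in untreated cells and 0.0923 ± 0.0126 TPM in the other arm. That log2 difference of -0.66 ± 0.39 was not called. The change of its arm difference did not pass from 0 to 8 h or from 24 to 48 h (limma voom adjusted p = 0.18 and 0.014). Of the 2 genes for Wnt secretion, PORCN, which attaches the lipid that Wnt proteins need, was higher by 0.82 ± 0.10, and the carrier WLS was at -0.12 ± 0.02 (F-test adjusted p = 3.3e-06 and 0.00029).

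Receptors went both ways, with 5 of 15 higher, 4 lower and 6 not called. FZD8 was higher by 1.47 ± 0.08 and FZD2 by 0.88 ± 0.08 on the log2 scale (limma voom F-test adjusted p = 3.5e-11 and 4.9e-08), and FZD2 stood at 26.1 TPM with and 10.01 TPM without TGFβ1 at 48 h. FZD7, the most abundant Frizzled at 0 h, was lower by -0.30 ± 0.03, and the WNT5A receptor ROR2 by -0.49 ± 0.09 (adjusted p = 4.9e-08 and 3.8e-05). By time, ROR2 differed by -0.09 at 8 h, -0.36 at 24 h and -1.03 at 48 h. Only the difference at 48 h passed (limma voom adjusted p = 0.74, 0.067 and 9.2e-06). LRP6, the co-receptor that DKK1 blocks, was at 0.14 ± 0.04 and was not called (adjusted p = 0.010).

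In the R-spondin arm, which sets how many Frizzled receptors stay on the surface, 2 of 8 genes were higher, 4 lower and 2 not called. The receptor LGR5 was higher by 1.31 ± 0.06, and RNF43, the ligase that removes Frizzled, was lower by -1.19 ± 0.04 (limma voom F-test adjusted p = 3.8e-13 and 1.8e-15). RNF43 stood at 4.18 TPM with and 9.83 TPM without TGFβ1 at 48 h. RSPO2, one of the ligands, did not exceed 0.497 TPM and was lower by -2.62 ± 0.46 (F-test adjusted p = 0.00043). ZNRF3, the relative of RNF43, averaged -0.01 ± 0.03 (F-test adjusted p = 0.0050). The ZNRF3 difference was 0.10 at 8 h and -0.23 at 48 h (limma voom adjusted p = 0.26 and 0.0027).

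Secreted inhibitors and their receptors were higher in 5 of 12 cases, lower in 1 and not called in 6. DKK2 (1.67 ± 0.18), the Frizzled-like SFRP4 (1.33 ± 0.08) and NOTUM (1.00 ± 0.09 on the log2 scale) were higher with TGFβ1, and SFRP1 was at 0.14 ± 0.02. NOTUM is an enzyme that strips the lipid from Wnt proteins, and DKK2 did not exceed 0.862 TPM in any library. For DKK2, SFRP4, NOTUM and SFRP1 the limma voom F-test adjusted p-values were 7.8e-07, 2.0e-12, 1.2e-07 and 9.0e-05. Of 12 transduction genes, 5 were higher, 0 lower and 7 not called, and CTNNB1, which encodes β-catenin, was higher by 0.32 ± 0.02 (adjusted p = 7.7e-11). Of 12 nuclear partners, 5 were higher, 2 lower and 5 not called, and the co-repressor TLE4 was lower by -1.16 ± 0.06 (adjusted p = 2.0e-12).

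Of the 7 pathway targets listed beside AXIN2, 3 were higher and 4 lower, and 2 of them passed 2-fold. These 2, SP5 (-1.27 ± 0.08) and APCDD1 (-1.29 ± 0.12 on the log2 scale), were lower with TGFβ1 (limma voom F-test adjusted p = 9.8e-11 and 4.1e-08). SP5, a transcription factor, stood at 3.76 TPM with and 9.75 TPM without TGFβ1 at 48 h. The higher genes were NKD1, TNFRSF19 and CCND1, the lower ones also included NKD2 and MYC, and the median of the 7 was -0.258.

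**Figure D4:**
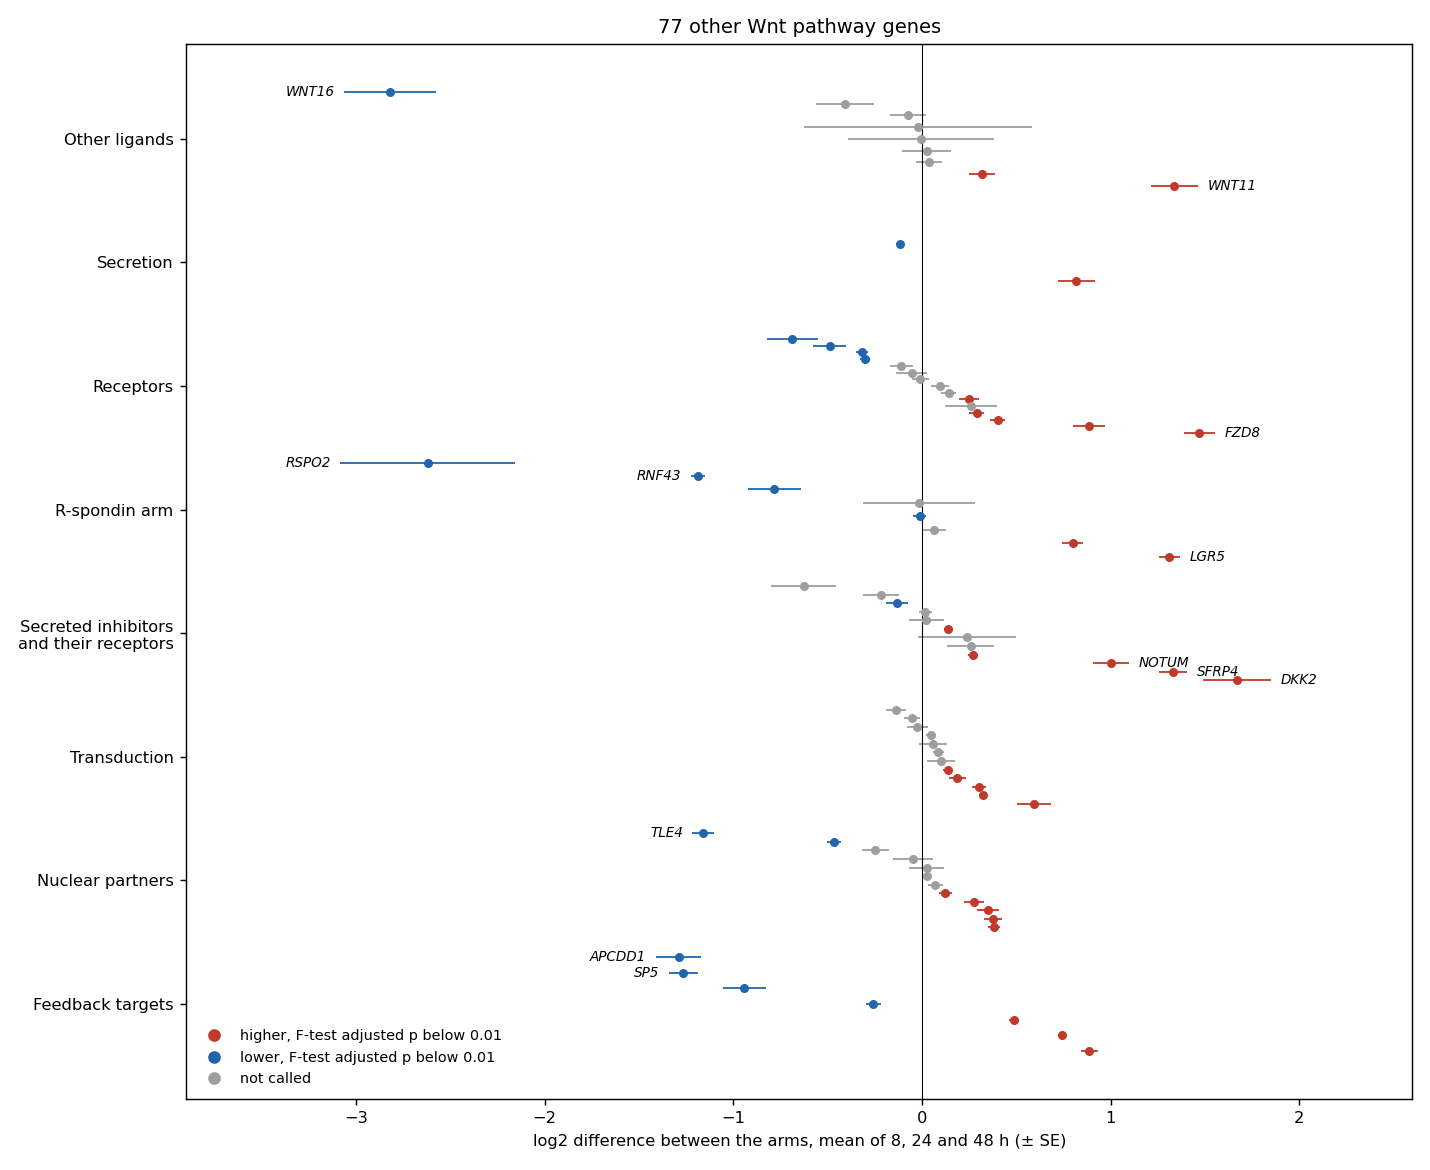
Average log2 difference between the arms over 8, 24 and 48 h (horizontal axis, bars are SE) for the 77 other Wnt pathway genes that were tested, in rows by role. Red is higher and blue lower at an F-test adjusted p below 0.01, grey was not called, and genes past 2-fold are named. WNT16 at -2.82 and RSPO2 at -2.62 stand farthest to the left and DKK2 at 1.67 farthest to the right.

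The genes whose 8 group means were most like those of a ligand were named by the highest Pearson correlation among all tested genes, as a description over groups that share libraries and time courses. For WNT5B they were PRR5L (r = 0.995) and HIC1 (r = 0.995), for WNT7A NET1 (r = 0.994) and BPGM (r = 0.990), and for WNT7B ADCY7 (r = 0.984) and ZNF592 (r = 0.984). PRR5L stood at 31.9 ± 2.07 TPM with and 10.5 ± 0.40 TPM without TGFβ1 at 48 h, and NET1 at 129 ± 2.59 TPM and 52.3 ± 0.40 TPM (SD, n = 3).

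The total of estimated counts ranged from 46613589 to 77964234 per library, with a median of 54120879. The direct TGFβ targets SMAD7 and PMEPA1 differed by 1.98 and 3.31 on the log2 scale at 8 h and by at most 0.10 at 0 h, which checks the labels of the arms. Epithelial markers were present, with KRT8 between 375 and 963 TPM, TP63 reached 37.5 TPM, and the squamous keratins KRT5, KRT6A and KRT14 did not exceed 0.102 TPM. The sum of 6 squamous or basal markers moved with the arms, at 46.5 to 49.0 TPM without and 95.9 to 98.9 TPM with TGFβ1 at 48 h, where KRT17 stood at 5.41 and 70.5 TPM and SOX2 at 5.23 and 0.432 TPM. The sum of 3 endothelial markers lay between 0.662 and 4.54 TPM, with PECAM1 at 0.582 to 4.14 TPM. VWF and CDH5 did not exceed 0.342 TPM. The sum of 3 immune markers lay between 9.09 and 41.7 TPM. Of these, CD68 lay between 7.64 and 40.2 TPM and PTPRC between 1.26 and 2.10 TPM, with CD3E at 0 in every library. The summed level of 5 fibroblast markers moved with the arms, from 198 to 212 TPM without to 2083 to 2381 TPM with TGFβ1 at 48 h, most of it COL1A1. Other fibroblast markers went the other way, with DCN at 12.2 TPM without and 1.47 TPM with TGFβ1 and LUM at 23.3 and 9.19 TPM. The part of these markers in the Wnt results was not tested.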

How the data were processed

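Total RNA of SK-MES-1 cells was sequenced in 24 libraries, 3 for each arm and time, and the labels gave the groups. The authors deposited kallisto (0.43.0) estimated counts and TPM values for 173259 transcripts on GRCh38, and whether strand was used is not given in the sources used here. Of these, 155518 were assigned to genes with GENCODE 44, an annotation newer than the authors' own, and held 94.82 to 95.18% of the counts, while 17741 were not matched. Gene sums of the estimated counts were rounded. The 17413 genes that reached 10 counts in 3 or more libraries were fitted with limma voom (limma 3.58.1, TMM factors from edgeR 4.0.16, R 4.3.3) with 8 group means over all 24 libraries, with Benjamini-Hochberg adjustment over all genes and a threshold of 0.01. edgeR's quasi-likelihood test, DESeq2 1.42.0, other scalings and units, leaving out each library, and a replicate block were the alternatives. Exact permutation tests used log2(TPM + 0.1), and transcripts of at least 10% of their gene in a group were tested for a change of share. Named genes were the 10 members, the pathway genes called with at least a 2-fold average difference, 8 pathway genes listed for their roles, and the 2 genes most correlated with each member that passed 2-fold. PORCN, WLS, NKD1, NKD2, TNFRSF19, CCND1 and MYC were named after their values were seen. The members and lists were chosen with earlier results of these data known. No 2 replicates agreed within sampling noise. The chi-square per gene between 2 replicates, a measure of their disagreement, ran from 3.17 to 60.6. It was highest for pairs with TGFβ1 replicate 2 of 0 h (60.6 and 40.3) and of 24 h (47.1 and 35.7). The estimated counts of a gene limit its precision, most of all for WNT7A, whose untreated libraries held 5 to 33.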

Additional observations from a re-analysis of the deposited data

Results flagged for a closer look

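By an interaction test in limma voom, the arm difference changed from 8 to 24 h for 3 of the 10 genes (6.7% of all genes) and from 24 to 48 h for 2 (9.14% of all genes), beside the 4 that changed from 0 to 8 h. From 8 to 24 h it moved toward higher with TGFβ1 for WNT7A (1.62 on the log2 scale), WNT7B (0.84) and DKK3 (0.23), times at which the codes in the table names differ. From 24 to 48 h, within the same codes, it moved by -1.64 for DKK1 and by 0.35 for AXIN2. Leaving out 1 of the 24 libraries ended the WNT7A call in 8 cases, WNT7B in 3, DKK3 in 10, AXIN2 in 10 and DKK1 in 0. The part of the codes in the changes from 8 to 24 h was not tested.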

How the results depend on the processing

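The number of genes whose arm difference changed from 24 to 48 h was 2, and 1 to 2 when a library was left out. It was 1 on log2(TPM + 1), on log2(TPM + 0.1), with no filter on low counts and with protein-coding transcripts only. With 4 reference genes as library size the AXIN2 call was lost and WNT5B was called instead. The number for 8 to 24 h was 3, and was 1 with length-scaled counts and with no filter, 5 with 4 reference genes as library size, and 0 to 3 when a library was left out. With 4 reference genes as library size the AXIN2 difference at 48 h was 0.075 and the LEF1 differences were 0.0091 at 24 h and 0.018 at 48 h, in place of lower values. Under that scaling the median of all genes was 0.43 at 24 h and 0.34 at 48 h, in place of -0.015 and -0.013, and relative to it AXIN2 was at -0.26, and LEF1 at -0.42 and -0.32. Of the genes called in the F-test, 49.3% were higher, 31.5% with library totals, 39.5% with upper-quartile factors and 88.5% with the reference genes (10964 called). The cause was not tested.

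After each gene's group mean was subtracted, the deviations of same-numbered libraries of the arms correlated at -0.0615 to 0.255 over 12 pairs. Of these correlations, 4 of 12 were above 0.1, so the replicate numbers were not taken as pairs. With the replicate block 8 of the 10 genes were called at 48 h (9 without it, LEF1 being the difference), 5 changed from 0 to 8 h (4 without it, AXIN2 being the difference) and 10 passed the F-test.

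Depth limits WNT7A most, with 5 to 33 estimated counts per untreated library after 0 h. The library estimates for LEF1 differ between counts and TPM.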
